A study of Danio rerio with 6 samples.

Results

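The subject is a group of genes for proteins that hepatocytes secrete into the blood plasma as carriers, as protease inhibitors or as the precursor of a hormone: ttr, rbp4, gc, ambp, serpina1, serpina1l, fetub, ahsg2, apoh and agt. They were chosen by gene symbol from a list of such proteins, and 9 of the 10 had a row in the deposited table of 23745 genes. No row carried the symbol apoh, and it was not analysed here. The 9 genes all passed the filter on low counts and were tested among 14096 genes.

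RNA was measured in hepatocytes of zebrafish larvae aged 6 dpf (days post fertilisation), isolated by fluorescence-activated sorting, with 2000 cells per sample. The 3 lcat OE libraries came from larvae with Tg(fabp10a:lcat-T2A-mCherry; fabp10a:eGFP), in which the promoter of the liver fatty acid binding protein gene fabp10a drives lcat together with a red reporter, beside a green reporter under the same promoter. The 3 CTL libraries came from larvae with Tg(fabp10a:eGFP), the green reporter alone, which both groups carry. No group had the red reporter without lcat, so effects of lcat, of mCherry and of the fish line cannot be told apart. Lecithin-cholesterol acyltransferase, the product of lcat, is a plasma enzyme that esterifies cholesterol on lipoproteins, and the study looks at transcripts in the early fatty liver that follows its overexpression. Whether replicates came from separate clutches or sorts is not in the labels, so each p-value refers to the spread among these libraries, which may be only technical. In such bulk samples fewer cells of a type and less RNA per cell cannot be told apart.

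The liver makes most proteins of the plasma, and many of them are transport proteins. Retinol-binding protein 4 takes retinol out of the liver, and in mammals it travels bound to transthyretin, which also carries thyroid hormone. The group-specific component, gc, is the vitamin D binding protein. Serpins are inhibitors that trap a protease by a change of shape, and angiotensinogen is a serpin by fold whose cleavage by renin starts the angiotensin cascade. Fetuins are secreted glycoproteins of the cystatin superfamily.

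The libraries held 23336591 to 24890856 counts. In CPM, read counts scaled to a common library size, lcat stood at 2608 ± 648 in lcat OE and 138 ± 15.5 in CTL (SD, n = 3 each). Its log2 fold change was 4.24 (SE 0.20, edgeR adjusted p = 1.35e-06), and reads of the transgene and of the native gene are not told apart. The hepatocyte markers chosen for the check, fabp10a and tfa among them, held 28.7% to 29.6% of counts in lcat OE and 24.5% to 25.7% in CTL. Most of these counts lay on apoa2, apoa1b and tfa, while fabp10a had a log2 fold change of 0.13 (edgeR adjusted p = 0.427). Of the 17 markers 2 were higher and 2 lower, where 16.3% of all genes tested were higher and 16.3% lower. Transcripts of marker genes of several other cell types differed between the groups. Epidermal markers held 0.928% to 1.63% of counts in lcat OE and 0.0761% to 0.139% in CTL, with 11 of 16 higher and 2 lower. Exocrine pancreas markers held 0.00495% to 0.0261% in lcat OE and 0.0777% to 0.189% in CTL, with 0 of 17 higher and 7 lower. None of the markers of these 3 lists was at 0 in a whole group. Markers of skeletal muscle (0 of 13 higher, 6 lower), retina and neurons (0 of 13 higher, 11 lower) and xanthophores (0 of 10 higher, 9 lower) were lower too, and the xanthophore marker aox5 had no count in lcat OE. Macrophage markers had 4 of 5 higher and 0 lower, endothelial markers 2 of 8 higher and 3 lower, biliary markers 1 of 9 higher and 2 lower, and intestinal markers 1 of 6 higher and 0 lower. The source of these marker transcripts and their part in the results were not tested.

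The library lcat OE 3 stood apart. Its TMM factor, which scales a library so that most genes match between libraries, was 0.869, against 1.039 and 1.003 in lcat OE 1 and 2 and 0.998 to 1.06 in CTL. All 9 plasma protein genes had their highest CPM of the lcat OE group in lcat OE 3, and 8 of 9 had their lowest in lcat OE 1. How many of all genes did so was not counted. The gene fabp10a was also highest of the group in lcat OE 3, at 11077 CPM, while lcat was lowest there, at 1958 CPM. The log2 fold changes of the 9 genes are given with and without each of these libraries. Ratios between genes and most shares of counts are given with all libraries only.

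By level per length, in TPM (transcript abundance scaled by length and depth), the order of the group means was the same in both groups: fetub, rbp4, serpina1l, serpina1, ambp, ttr, gc, ahsg2 and agt. The gene fetub ranked 4 to 5 among all genes in lcat OE and 4 in each CTL library. At the other end, agt ranked 252 to 280 in lcat OE and 217 to 252 in CTL. Neighbours in the order did not overlap in their ranges, except serpina1l with serpina1 and ambp with ttr in lcat OE, and ahsg2 with agt in CTL. The relative SD of TPM was larger in lcat OE than in CTL for 7 of the 9 genes, with 25.8% against 6.97% for rbp4 and 15.5% against 0.755% for serpina1l.

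**Figure D1:**
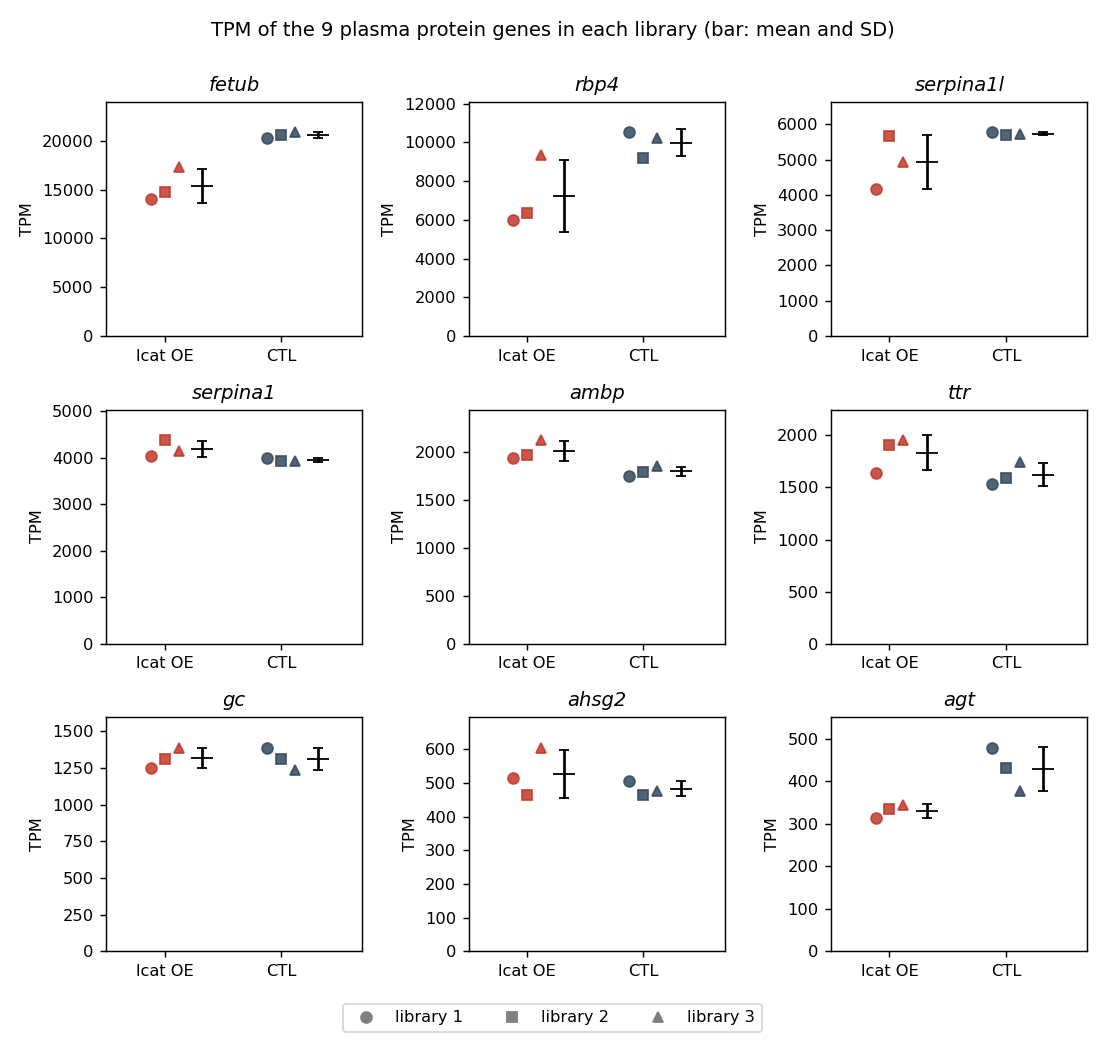
TPM of the 9 genes in each library, lcat OE left and CTL right in each panel, with marker shape for the library number and a bar for mean and SD of 3 libraries. All panels start at 0. In TPM, fetub, serpina1l and agt are lower in all 3 lcat OE libraries than in any CTL library, and ambp and serpina1 are higher. For serpina1l the gap is small, at 5686.03 TPM in lcat OE 2 against 5688.34 TPM in CTL 2. The share of all genes without overlap was taken in CPM only, at 47.7%. In CPM 3 of the 9 genes were higher without overlap and 0 lower.

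In the test across all genes, 0 of the 9 genes passed at an adjusted p of 0.05 (edgeR quasi-likelihood test with TMM factors, Benjamini-Hochberg adjustment over 14096 genes), where 32.6% of all genes tested passed, 16.3% higher and 16.3% lower. Of the 9 log2 fold changes 5 lay above 0 and 4 below, and 3 had an unadjusted p under 0.05. They ran from -0.27 to 0.37, with a median of 0.19, against a median of -0.016 over all genes. Their median size, without sign, was 0.27, against 0.42 over all genes tested and 0.26 over the 811 genes with at least 100 CPM, of which 33.3% passed. The genes are abundant, with at least 13085 counts in every library, so counting error is small and the spread between libraries sets the intervals. The count of 0 depends on the scaling, the filter on low counts and the libraries used. DESeq2, which brings its own scaling and was run without that filter, called 1 of the 9, ambp, higher and 0 lower. In edgeR ambp passed as well with DESeq2's median-ratio scaling (adjusted p = 0.0402) and with no filter (adjusted p = 0.0274). With library totals in place of TMM factors 3 were higher (ambp, ttr, serpina1) and 2 lower (fetub, agt), and with limma on log2(TPM + 1) 0 were higher and 2 lower (fetub, agt). With limma on log2(FPKM + 1), 3 were higher (ambp, ttr, serpina1) and 1 lower (fetub). The split of all genes called moves with these settings as well: 2293 were higher and 2303 lower with TMM factors, 1672 and 2639 with library totals, 1344 and 3024 on log2(TPM + 1), and 1661 and 2483 on log2(FPKM + 1). Without lcat OE 1, 3 of the 9 were higher (ttr, ambp, serpina1) and 0 lower. Of all 14664 genes tested there, 1987 were higher and 1898 lower. Without lcat OE 3, 2 of the 9 were higher (ambp, serpina1) and 2 lower (fetub, rbp4). Of all 14786 genes tested there, 2441 were higher and 2253 lower. Leaving out lcat OE 2, CTL 1, CTL 2 or CTL 3 in turn gave 0 of the 9 higher and 0 lower each time. Over all genes those fits gave 1773 to 1993 higher and 1740 to 2012 lower.

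**Figure D2:**
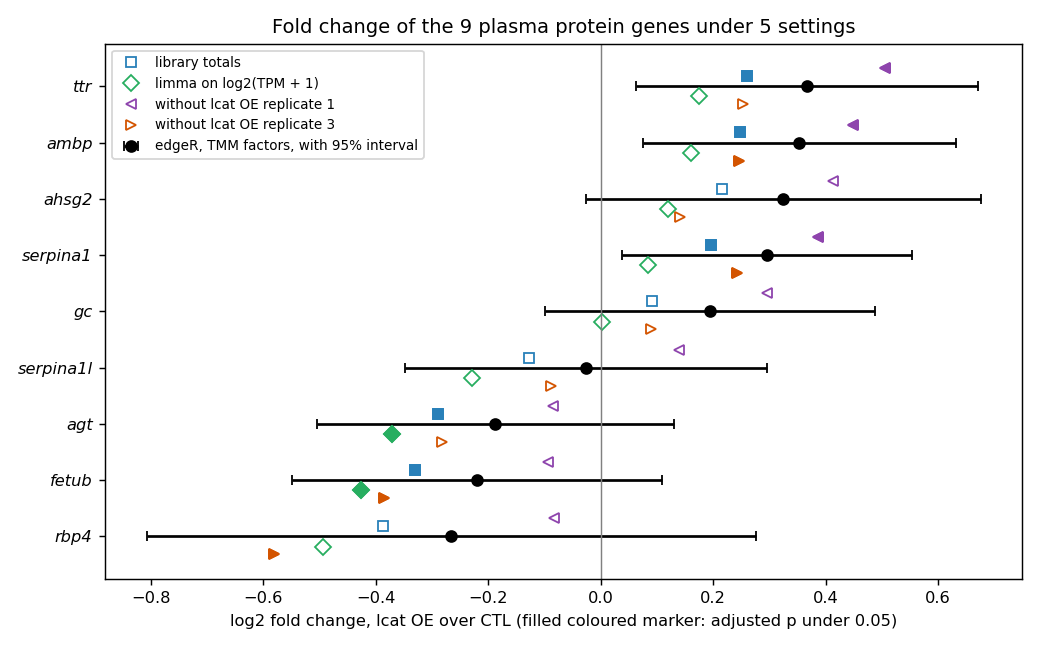
Log2 fold change of each gene, lcat OE over CTL, in edgeR with TMM factors (black, with 95% interval) and under 4 other settings (coloured, filled where adjusted p was under 0.05). No black point passed the adjusted threshold, and the points without lcat OE 1 lie right of those without lcat OE 3 for all 9 genes.

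Among the carriers, rbp4 and ttr lay on opposite sides of 0. The gene rbp4 had 5972, 6329 and 9366 TPM in lcat OE, against 10518, 9198 and 10241 TPM in CTL. In TPM lcat OE 1 and 2 were below every CTL library, while lcat OE 3 lay inside the CTL range. With TMM factors the CPM of lcat OE 3, 8226, was above the highest CTL value, 7681. On that scale the log2 fold change was -0.27 (95% interval -0.81 to 0.28, edgeR adjusted p = 0.428). Without lcat OE 3 it was -0.58 (edgeR adjusted p = 0.002), and without lcat OE 1 it was -0.083 (edgeR adjusted p = 0.817). On log2(TPM + 1) it was -0.49 (limma adjusted p = 0.0721), or -0.40 relative to the median of all genes on that scale.

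The gene ttr had 1639, 1908 and 1955 TPM in lcat OE, against 1531, 1589 and 1747 TPM in CTL. On this scale the groups overlapped, since lcat OE 1 lay below CTL 3. In CPM the lowest lcat OE value, 1120.9, was just above the highest CTL value, 1120.7. Its log2 fold change was 0.37 (95% interval 0.06 to 0.67, adjusted p = 0.0645). It passed without lcat OE 1 (0.50, adjusted p = 0.0143) and did not without lcat OE 3 (0.25, adjusted p = 0.0823).

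Set against each other within a library, where no scaling factor enters, ttr counts were 0.258, 0.284 and 0.197 of rbp4 counts in lcat OE and 0.137, 0.163 and 0.16 in CTL. Every lcat OE ratio was above every CTL ratio, a difference of 0.67 on the log2 scale with p = 0.1 in an exact two-sided permutation test, the smallest that 3 against 3 libraries can give. The ratio is of counts, not of molecules, since the transcripts differ in length.

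The vitamin D binding protein gene gc had 1251, 1307 and 1385 TPM in lcat OE, against 1387, 1313 and 1238 TPM in CTL. The groups overlapped almost fully. Its log2 fold change was 0.19 (95% interval -0.10 to 0.49, edgeR adjusted p = 0.294), and on log2(TPM + 1) it was 0.0025 (limma adjusted p = 0.981). Without lcat OE 1 it was 0.29 (adjusted p = 0.136), and without lcat OE 3 it was 0.089 (adjusted p = 0.495).

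Of the inhibitors, ambp was closest to the threshold. It encodes a precursor that is cut into alpha-1-microglobulin, a small carrier of haem and other ligands, and bikunin, the inhibitor chain of the inter-alpha-trypsin inhibitor family. It had 1932, 1973 and 2124 TPM in lcat OE, against 1748, 1793 and 1850 TPM in CTL. The groups did not overlap in TPM, CPM or share of counts. In CPM 3 of the 9 genes (ttr, ambp and serpina1) were higher without overlap and 0 lower, where 47.7% of all genes tested did not overlap, 23.6% higher and 24.1% lower. For ambp the log2 fold change was 0.35 (95% interval 0.07 to 0.63, edgeR adjusted p = 0.0533). It was 0.45 without lcat OE 1 (adjusted p = 0.0275) and 0.25 without lcat OE 3 (adjusted p = 0.0334). The gene passed under 10 of 19 alternatives (adjusted p 0.011 to 0.188), such as DESeq2 (adjusted p = 0.039) and library totals (0.25, adjusted p = 0.0109). Among the 10 was 2 against 2 libraries, chosen after seeing the data (edgeR adjusted p = 0.044). It did not pass without lcat OE 2 (edgeR adjusted p = 0.0685) or without CTL 1, 2 or 3 in turn (edgeR adjusted p = 0.111, 0.188 and 0.136). With the replicate number as a block it did not pass either (edgeR adjusted p = 0.121).

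The genes serpina1 and serpina1l, both related to human alpha-1-antitrypsin, the main inhibitor of neutrophil elastase, are neighbouring coding genes in the RefSeq gene table of GRCz12tu. Their deposited counts are not whole in any of the 6 libraries, while their sum is whole in all 6 (tolerance 0.005). None of the other 7 genes had a fractional count in any library. The counting thus divided some reads between these rows, and the level of each alone is uncertain. With that limit, serpina1 had 4041, 4382 and 4146 TPM in lcat OE, against 4001, 3920.5 and 3925 TPM in CTL. All 3 lcat OE values were above all CTL values, with lcat OE 1 and CTL 1 nearest to each other. Its log2 fold change was 0.30 (95% interval 0.04 to 0.55, edgeR adjusted p = 0.0767). It passed without lcat OE 1 (0.39, adjusted p = 0.0339) and without lcat OE 3 (0.24, adjusted p = 0.0441). It did not pass without lcat OE 2 (edgeR adjusted p = 0.149) or without CTL 1, 2 or 3 in turn (edgeR adjusted p = 0.115, 0.261 and 0.218).

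The gene serpina1l had 4162, 5686 and 4938 TPM in lcat OE, against 5775, 5688 and 5729 TPM in CTL. In TPM the CTL libraries lay close together, and lcat OE 2 was level with them while lcat OE 1 and 3 were lower. In CPM lcat OE 2 (10158) and lcat OE 3 (10201) were above the highest CTL value, 9809. On log2(TPM + 1) the log2 fold change was -0.23 (limma adjusted p = 0.113), or -0.14 relative to the median of all genes on that scale. With TMM factors it was -0.026 (95% interval -0.35 to 0.30, edgeR adjusted p = 0.911). It turned to 0.14 without lcat OE 1 and 0.017 without CTL 1. Leaving out lcat OE 3 gave -0.088, leaving out lcat OE 2 gave -0.10 and leaving out CTL 2 gave -0.064. Summed, the pair had a log2 fold change of 0.091 (95% interval -0.18 to 0.36, edgeR adjusted p = 0.609), or -0.091 on log2(TPM + 1). For the sum it was 0.24 when lcat OE 1 was left out, 0.055 when lcat OE 2 was, 0.043 when lcat OE 3 was and 0.15 when CTL 1 was. Within the pair, serpina1l took 54.4%, 60.02% and 58.0% of the pair's counts in lcat OE, against 62.9%, 63.01% and 63.2% in CTL. The means were 57.5% ± 2.83 and 63.1% ± 0.1505 (SD, n = 3 each; exact two-sided permutation p = 0.1). The part of the divided reads in this difference was not tested.

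The fetuin gene fetub was the most abundant of the 9. Fetuin-B is known in mouse as an inhibitor of the egg protease ovastacin. It had 14063, 14746 and 17301 TPM in lcat OE, against 20257, 20595 and 20859 TPM in CTL. Every lcat OE library was below every CTL library, and lcat OE 3 was nearest to them. The share of counts was 2.67%, 2.83% and 3.32% in lcat OE and 3.67%, 3.67% and 3.75% in CTL (exact two-sided permutation p = 0.1). With TMM factors the CPM of lcat OE 3, 38271, was above the highest CTL value, 36829, and the log2 fold change was -0.22 (95% interval -0.55 to 0.11, adjusted p = 0.287). Without lcat OE 3 it was -0.39 (adjusted p = 0.00232), and without lcat OE 1 it was -0.094 (adjusted p = 0.665). On library totals it was -0.33 (adjusted p = 0.00803) and on log2(TPM + 1) -0.43 (limma adjusted p = 0.0027), or -0.33 relative to the median of all genes on that scale.

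The second fetuin gene among the 9, ahsg2, is related to mammalian fetuin-A, which binds calcium phosphate mineral in plasma. It had 513.5, 463.2 and 604.6 TPM in lcat OE, against 506.9, 463.1 and 477.4 TPM in CTL. The groups overlapped, with lcat OE 3 as the highest library. Its log2 fold change was 0.32 (95% interval -0.027 to 0.68, edgeR adjusted p = 0.145), 0.41 without lcat OE 1 and 0.14 without lcat OE 3, and it passed under 0 of 19 alternatives. The ratio of ahsg2 to fetub counts in a library was 0.0302, 0.026 and 0.0289 in lcat OE, above 0.0207, 0.0186 and 0.0189 in CTL (difference 0.54 on the log2 scale, exact two-sided permutation p = 0.1).

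The angiotensinogen gene agt had 312.9, 333.5 and 344.1 TPM in lcat OE, against 478.6, 431.4 and 376.6 TPM in CTL. All 3 lcat OE values were lower in TPM, with CTL 3 nearest to them. In CPM the groups overlapped, with lcat OE 3 at 715.7 above CTL 2 at 680.5 and CTL 3 at 612.2. With TMM factors the log2 fold change was -0.19 (95% interval -0.51 to 0.13, edgeR adjusted p = 0.349) and -0.060 without CTL 1; it was -0.28 without CTL 3. Without lcat OE 1 it was -0.085 (adjusted p = 0.718), and without lcat OE 3 it was -0.28 (adjusted p = 0.108). On log2(TPM + 1) it was -0.37 (limma adjusted p = 0.0196), or -0.28 relative to the median of all genes on that scale.

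Together the 9 genes held 5.20%, 5.77% and 6.39% of counts in lcat OE, against 6.71%, 6.52% and 6.69% in CTL. Every lcat OE library was below every CTL library, with a difference of -0.848 percentage points between the means (5.79% ± 0.593 in lcat OE and 6.64% ± 0.106 in CTL, SD, n = 3 each; exact two-sided permutation p = 0.1). Most of the gap lay in fetub: without it the shares were 2.53%, 2.95% and 3.07% in lcat OE and 3.04%, 2.85% and 2.94% in CTL, which overlap (exact p = 0.9). Against a total that leaves out the 20 most abundant other genes, the groups overlapped as well, at 9.82% ± 1.09 and 10.7% ± 0.249 (SD, n = 3 each; exact p = 0.4).

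**Figure D3:**
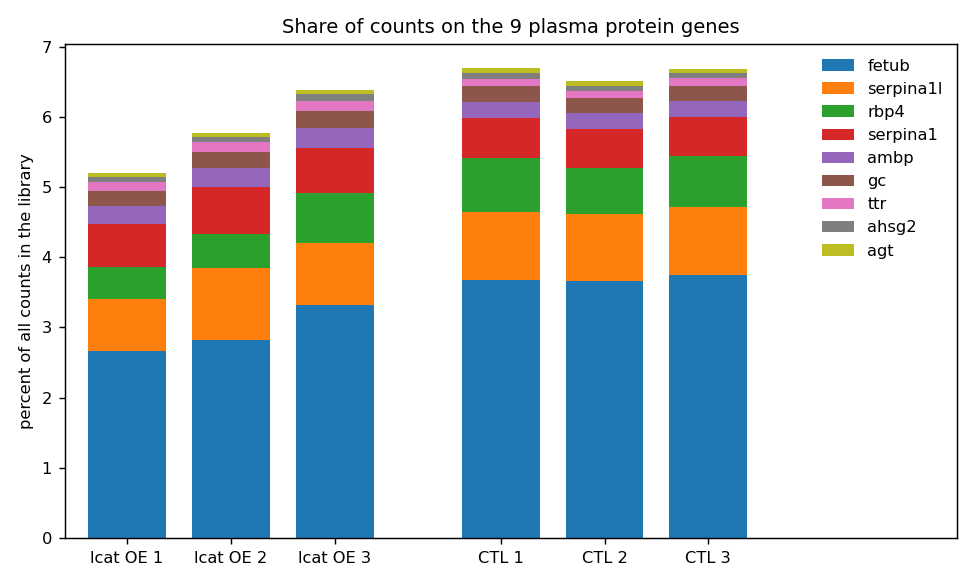
Percent of each library's counts on the 9 genes, stacked by gene, lcat OE left and CTL right. The total runs from 5.20% to 6.39% in lcat OE and from 6.52% to 6.71% in CTL, and the fetub segment is shorter in all 3 lcat OE libraries.

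Within the summed counts of the 9 genes, which no scaling factor touches, 5 genes took a larger share in every lcat OE library than in any CTL library. Of the others 1 took a smaller share and 3 overlapped. A share of this kind was not taken over all genes, of which 47.7% did not overlap in CPM. The share of fetub was 50.7% ± 1.57 in lcat OE and 55.7% ± 0.830 in CTL. That of serpina1 was 11.2% ± 1.02 in lcat OE and 8.49% ± 0.115 in CTL, of ambp 4.68% ± 0.244 and 3.43% ± 0.0845, and of ttr 2.27% ± 0.0948 and 1.65% ± 0.0888 (SD, n = 3 each). Since fetub held 49.0% (lcat OE 2) to 56.3% (CTL 2) of the sum, a smaller fetub share raises the others by itself. The sum was also taken without fetub, an alternative chosen after seeing the data. Of the other 8 genes, 4 (ttr, ambp, serpina1 and gc) then took a larger share in every lcat OE library. A smaller share in every one was taken by 0, and 4 overlapped. On that basis ttr took 4.61% ± 0.0445 in lcat OE and 3.73% ± 0.257 in CTL, and rbp4 19.1% ± 3.62 in lcat OE and 24.4% ± 1.07 in CTL (SD, n = 3 each), the last with overlap. In this sum too, a smaller rbp4 share raises the others by itself. The gene gc took a larger share here, although its TPM overlapped almost fully between the groups. Each exact test over 3 against 3 libraries had p = 0.1 at best.

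**Figure D4:**
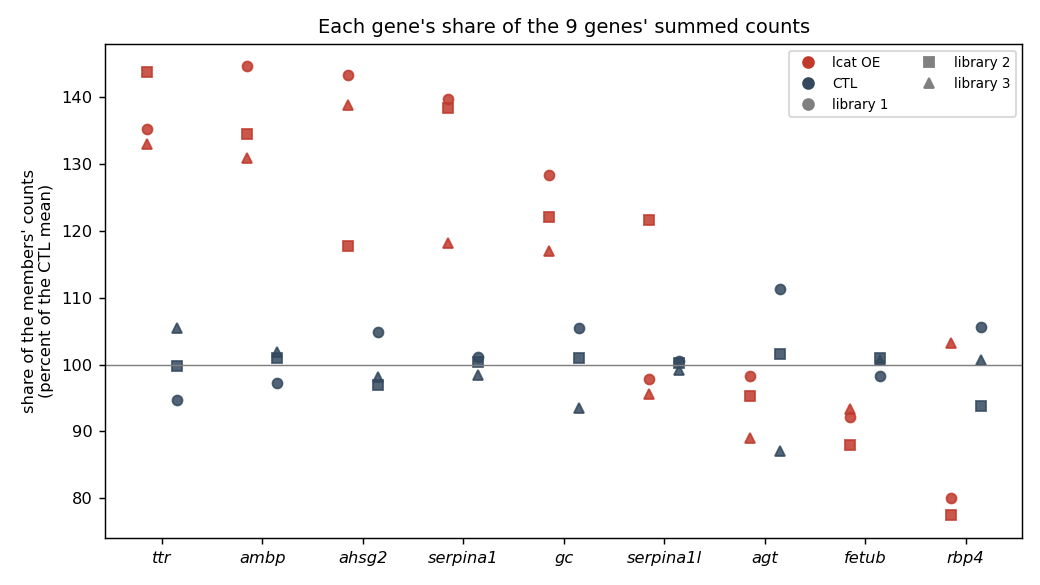
Share of each gene in the summed counts of the 9 genes, as percent of its CTL mean, with lcat OE in red left and CTL in blue right of each position and marker shape for the library number. The points of ttr, ambp, ahsg2, serpina1 and gc are higher in lcat OE without overlap and those of fetub are lower. Of all genes tested 47.7% did not overlap in CPM. The vertical axis does not start at 0.

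Other genes of the pathways these proteins serve were tested from lists. In a list of retinoid and thyroid hormone genes, 2 of 23 tested genes were higher and 5 lower (median log2 fold change -0.25, against -0.016 over all genes). Of all genes tested 16.3% were higher and 16.3% lower. The gene stra6l, which encodes a relative of the RBP4 receptor STRA6, fell to 17.5, 18.8 and 19.8 CPM in lcat OE, against 35.6, 31.8 and 36.6 CPM in CTL (log2 fold change -0.89, SE 0.11, edgeR adjusted p = 0.000271). The retinol dehydrogenase gene rdh10a fell as well, with 1.38 ± 0.223 CPM in lcat OE and 3.26 ± 1.01 CPM in CTL (SD, n = 3 each; -1.24, SE 0.29, edgeR adjusted p = 0.00866).

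In a list of vitamin D genes, 3 of 10 tested genes were higher and 1 lower (median log2 fold change 0.13), against 16.3% each way over all genes tested. The gene cyp2r1, whose product starts the activation of vitamin D by hydroxylation, rose to 133, 215 and 182 CPM in lcat OE, against 96.0, 64.4 and 60.3 CPM in CTL (log2 fold change 1.26, SE 0.23, edgeR adjusted p = 0.00405). The gene cyp27b1, whose product makes the active hormone, also rose, to 124 ± 26.6 CPM in lcat OE against 69.1 ± 13.1 CPM in CTL (SD, n = 3 each; 0.85, SE 0.19, edgeR adjusted p = 0.00745). Neither gene overlapped between the groups.

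In a list of renin-angiotensin genes, 0 of 9 tested genes were higher and 2 lower, against 16.3% each way over all genes tested. The median log2 fold change was -0.12, and both lower genes were at low level. The gene ace, angiotensin converting enzyme, had 0.223 ± 0.0964 CPM in lcat OE and 1.78 ± 1.14 CPM in CTL (SD, n = 3 each; -2.96, SE 0.59, edgeR adjusted p = 0.00361), and the receptor gene agtr2 had 0.937 ± 0.377 and 3.47 ± 1.42 CPM (-1.89, SE 0.40, edgeR adjusted p = 0.00566). Skeletal muscle markers were lower in the same libraries, at 0.00157% to 0.00204% of counts in lcat OE and 0.00614% to 0.0281% in CTL. So were markers of exocrine pancreas, retina and neurons, and xanthophores, while endothelial markers had 2 of 8 higher and 3 lower. The part of other cell types in the values of ace and agtr2 was not tested.

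In a list of other protease inhibitors, not all of them secreted, 4 of 25 tested genes were higher and 6 lower (median log2 fold change -0.014). Over all genes tested 16.3% were higher and 16.3% lower. The higher genes were serpina7, spint1a, spint1b and spint2. The serpin gene serpina7, named for thyroxine-binding globulin in mammals, rose to 599, 638 and 563 CPM in lcat OE, against 149, 146 and 149.6 CPM in CTL (log2 fold change 2.02, SE 0.11, edgeR adjusted p = 1.34e-06). The lcat OE values were all above the CTL values. The Kunitz inhibitor gene spint2 rose too, to 75.7 ± 14.8 CPM in lcat OE against 6.98 ± 1.35 CPM in CTL (SD, n = 3 each; 3.44, SE 0.19, edgeR adjusted p = 2.25e-06). It encodes a membrane-bound inhibitor of epithelia, and the epidermal markers were higher in the same libraries, as given above; their part in this rise was not tested.

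In a list of other plasma protein genes, not all of them secreted, 5 of 30 tested genes were higher and 5 lower (median log2 fold change 0.027). Over all genes tested 16.3% were called each way. The summed share of counts of the list was 29.1% to 30.1% in lcat OE and 24.7% to 26.1% in CTL. That share was mostly 3 genes, named after their values were seen. The same 3 genes are among the hepatocyte markers above and make up most of their share too. The apolipoprotein gene apoa2 had 137860 CPM in lcat OE and 103600 CPM in CTL (edgeR adjusted p = 0.0213), apoa1b 106360 CPM in lcat OE and 92163 CPM in CTL (edgeR adjusted p = 0.212), and the transferrin gene tfa 33597 CPM in lcat OE and 21124 CPM in CTL (edgeR adjusted p = 0.00141). By the smallest p the list gave apoa4b.2, an apolipoprotein gene, which rose to 68.4 ± 4.78 CPM in lcat OE against 19.98 ± 2.56 CPM in CTL (SD, n = 3 each; 1.78, SE 0.13, edgeR adjusted p = 8.7e-06). It also gave fgfr4, which fell to 3.84 ± 1.05 CPM in lcat OE against 15.4 ± 2.83 CPM in CTL (-2.00, SE 0.22, edgeR adjusted p = 0.00013) but encodes a membrane receptor and no secreted protein. The gene fgfr4 is among the 5 lower genes counted above.

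Of a list of transcription factor genes known to act on liver secretory genes, 2 of 23 tested were higher and 8 lower, where 16.3% of all genes tested were higher and 16.3% lower (median log2 fold change -0.28, against -0.016 over all genes). The gene stat3, which carries the acute phase signal of interleukin 6 in mammals, fell to 10.6 ± 1.62 CPM in lcat OE against 25.7 ± 3.82 CPM in CTL (SD, n = 3 each; log2 fold change -1.28, SE 0.15, edgeR adjusted p = 0.000184). The forkhead factor gene foxa3 fell to 18.7 ± 3.66 CPM in lcat OE against 50.2 ± 11.1 CPM in CTL (SD, n = 3 each; -1.42, SE 0.19, edgeR adjusted p = 0.000506).

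For each of the 9 genes, the nearest pattern among 802 other genes with at least 100 CPM was taken as the smallest root mean square difference of centred log2 CPM over the 6 libraries. The closest match was serpina1 with cbsa, a cystathionine beta-synthase gene, at 0.0175, where cbsa had 142, 160.2 and 176 CPM in lcat OE and 138, 120.6 and 127 CPM in CTL. The match for fetub was caprin1b at 0.039, for gc rplp2l at 0.0256, for ambp zgc:136826 at 0.0367, for agt rpl10 at 0.0422 and for ahsg2 g6pca.2 at 0.0494. Those of serpina1l (LOC569025 at 0.059), rbp4 (nme4 at 0.0668) and ttr (grhprb at 0.0707) were looser. As with rbp4, lcat OE 3 was above lcat OE 1 and 2 in nme4, with 74.6, 81.5 and 141 CPM in lcat OE against 139, 119.3 and 118.3 CPM in CTL.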

How the data were processed

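The authors deposited 1 table with 3 sets of values per library, used here. The read counts deposited by the authors are expected counts, whose fractions come from reads divided between genes; TPM and FPKM values, scaled by transcript length and depth, were also deposited by the authors. The tools RSEM 1.3.1, HISAT, DESeq2 1.4.5 and Bowtie2 2.3.4.3 and the build GRCz11 stand, without roles, in the submitters' processing notes; annotation, filters and strand handling were not given in the sources used here. A further 6 per-library columns and 8 group averages were not used.

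Counts were rounded and tested in edgeR 4.0.16 under R 4.3.3 (filterByExpr, TMM, quasi-likelihood F test with robust estimation, no covariate beside group, two-sided, Benjamini-Hochberg over all genes tested), and the code was tested on simulated data. The SE is the absolute log2 fold change over the square root of F. CPM uses TMM-scaled totals. Alternatives used limma 3.58.1 and DESeq2 1.42.0. Single values were tested by exact permutation over libraries in scipy 1.17.1. The number of counts limits precision by counting error only. Replicates differed beyond sampling noise, at 10.5 to 33.2 for chi-square over its degrees of freedom.

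Of 283 names in 6 pathway and 10 marker lists, the table's symbols matched 268, RefSeq synonyms matched 8, and 7 stayed unmatched. The genes, lists and tests were chosen with earlier results of these data known. Named are the 9 genes, lcat and fabp10a, up to 2 genes per pathway list with the smallest p past the threshold, and the nearest pattern to each of the 9. The genes aox5, apoa2, apoa1b, tfa, spint1a and spint1b were named after their values were seen. Alternatives changed the scaling, the filter, the tool, the pseudocount, the total behind shares and the libraries used. Leaving out CTL 1 and lcat OE 3 together, and fetub out of the sum, were chosen after seeing the data.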

Additional observations from a re-analysis of the deposited data

How the results depend on the processing

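Of the 9 genes 0 were higher and 0 lower with TMM factors. The number higher was 1 with DESeq2 median-ratio scaling, 3 with library totals and 2 with no filter on low counts. It was 1 with at least 5 CPM in 3 libraries, 1 with DESeq2 and 3 with limma on log2(FPKM + 1). It was 1 with serpina1 and serpina1l summed, and 2 with 2 against 2 libraries (without CTL 1 and lcat OE 3, chosen after seeing the data). Over all genes 2350 of 14096 were higher with median-ratio scaling, 1672 with library totals and 1661 with limma on log2(FPKM + 1). That number was 2487 of 23712 with no filter and 2245 of 23712 with DESeq2. It was 1335 of 6580 with at least 5 CPM in 3 libraries, and 2180 of 14588 with 2 against 2 libraries. For the summed pair the number over all genes was not taken. Of the 9 genes, the number lower was 2 with library totals, 2 with limma on log2(TPM + 1) and 2 on log2(TPM + 0.1). It was 1 on log2(FPKM + 1) and 2 with 2 against 2 libraries. Over all 14096 genes 2639 were lower with library totals, 3024 on log2(TPM + 1), 3068 on log2(TPM + 0.1) and 2483 on log2(FPKM + 1). With 2 against 2 libraries 2127 of 14588 were lower. Leaving out 1 library gave 0 to 3 of the 9 higher and 0 to 2 lower. Over all genes it gave 1773 to 2441 higher and 1740 to 2253 lower. Both counts of the 9 genes stayed at 0 unless the library left out was lcat OE 1 or lcat OE 3. Neither count changed with scaling without the 20 most abundant genes or a fit that is not robust. With the replicate block 0 were higher and 0 lower, and over all genes 2040 were higher and 2152 lower, in place of 2293 and 2303; same-numbered libraries deviated with correlations of -0.05, -0.03 and 0.02, so the numbers were not taken as pairs.

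Library totals moved the median of all genes to -0.11, and log2(TPM + 0.1) moved it to -0.18, from where fetub was -0.24 and agt -0.19. The signs of 8 of the 9 genes held under every setting run. That of serpina1l turned to 0.017 without CTL 1 and 0.14 without lcat OE 1 (-0.10 to 0.14 with 1 library left out), and that of the summed pair to -0.091 on log2(TPM + 1) and log2(TPM + 0.1). The sign of fabp10a turned to -0.025 on both TPM scales, and that of LOC569025 to 0.063 without CTL 1 and 0.16 without lcat OE 1 (-0.12 to 0.16 with 1 library left out). The gene grhprb (0.43, adjusted p = 0.0268) lost its call with the replicate block and without each CTL library in turn (highest adjusted p = 0.123). The serpina1l share of the summed counts, 0.73 percentage points higher in lcat OE, turned to -0.479 without lcat OE 2 (-0.479 to 1.41 with 1 library left out) and -1.88 without fetub in the sum. The 12 genes named from the pathway lists by the smallest p passed under all alternatives in which they were tested. The causes were not tested. The gap in the summed share, -0.848 percentage points, was -0.0913 without fetub and -1.15 to -0.555 with 1 library left out. Counting error is small for genes this abundant, and the spread between libraries sets the intervals.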

Other observations

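Within lcat OE the libraries differed in lcat itself, which had 2247, 1723 and 1118 TPM in lcat OE 1, 2 and 3. In TPM, 7 of the 9 plasma protein genes were highest of the group in lcat OE 3 and 8 of the 9 were lowest in lcat OE 1. For fetub and rbp4 lcat OE 3 was thereby the library nearest to CTL, and for ambp and ttr it was the one farthest from CTL. In serpina1 and serpina1l the highest library of the group was lcat OE 2, at 4382 and 5686 TPM. How many of all genes were highest in lcat OE 3 or lowest in lcat OE 1 was not counted. With 3 libraries this is a description, and a link to the level of lcat was not tested.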
